A study of Mus musculus with 23 samples.

Results

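The macrophages at the borders of the brain were compared with the microglia of the same animals 1 day after an ischemic stroke. The members were the 10 libraries, of 23 in the series, that came from the 5 vehicle-treated (CTL) mice, chosen by their sample labels: 5 libraries of tdT− subdural CNS-associated macrophages (sdCAMs) and 5 of microglia (MG). Each animal, named F1, F2, F3, M1 or M2, gave 1 library of each kind, so that every comparison was made within the animal. All mice carried 1 Ccr2creERT2 allele and the R26tdT reporter on both alleles, in which tamoxifen starts lasting expression of the red protein tdT in cells that express the monocyte receptor gene Ccr2. They received vehicle by gavage on 7 days, tamoxifen at 2 mg per day, and 8 weeks later thrombin into the middle cerebral artery, which clots it. Cells came from coronal brain slices without choroid plexus and were sorted as CD45int CD11b+ cells, MG as CD206− and sdCAMs as CD206int-high and tdT−. By the methods of the study the gate also left out cells positive for Ly6C, Ly6G or CD11c, proteins known from classical monocytes, neutrophils and dendritic cells. The sdCAM gate thus left out cells that carried the Ccr2-lineage label, and it pooled leptomeningeal with perivascular macrophages. No library of mice without stroke is used here, so none of the differences can be read as a response to stroke.

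Microglia sit among neurons, survey the tissue with moving processes that follow extracellular nucleotides, and keep their identity under TGF-β through factors such as Sall1. sdCAMs line the pial surface and the space around penetrating vessels, where they take up material from cerebrospinal fluid and blood through scavenger and lectin receptors. Both derive from the yolk sac and both need signals through the CSF-1 receptor. Because these are bulk samples, fewer cells of a type and less RNA per cell cannot be told apart.

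Total counts were 10310884 to 13276081 per library, and 14540 to 15590 genes had at least 1 count. Levels are given in CPM, the counts of a gene scaled to a common library size with TMM factors, as mean ± SD over 5 animals. Differences are log2 fold changes of sdCAMs over MG (log2FC) with their standard error (SE). Spearman correlations across genes were 0.965 to 0.98 among MG and 0.934 to 0.965 among sdCAM libraries. Genes of the gated proteins only check the sort. Mrc1, which encodes CD206, was at 5.32, 10.3, 36.4, 10.8 and 6.12 CPM in MG and at 2939.7, 3347, 3392, 3162 and 3208 CPM in sdCAMs of F1, F2, F3, M1 and M2, the order used for all values by animal below. Xist was read in both libraries of F1, F2 and F3 and the Y-linked genes in both libraries of M1 and M2, so each pair of libraries matched.

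Markers of the other population were read at a low level. Over 9 MG markers, sdCAM libraries held between 1.67% (Slc2a5) and 15.1% (Gpr34) of the MG level, and over 8 sdCAM markers, MG libraries held between 0.0513% and 0.43% of the sdCAM level. Whether the MG genes read in sdCAM libraries came from sdCAMs was not tested. Markers of non-myeloid cells also parted the libraries. The summed level of 7 neuron markers was 5.47 to 10.5 CPM in MG and 53.8 to 113 CPM in sdCAMs, and 6 of 6 tested markers were higher in sdCAMs. That of 8 fibroblast markers was 4.15 to 10.7 CPM in MG and 149.5 to 292 CPM in sdCAMs, with 4 of 4 tested markers higher, and most of that sum was Ptgds. Endothelial markers summed to 21.2 to 31.9 CPM in MG and 65.4 to 128 CPM in sdCAMs, where Egfl7 was the 1 of 7 tested markers called higher and Pecam1 the 1 called lower. Neutrophil markers summed to 154 to 227 CPM in MG and 46.3 to 69.9 CPM in sdCAMs, most of it Csf3r, with Ly6g at 0 counts in every MG library and in 4 of 5 sdCAM libraries. T and NK cell markers, and likewise mast cell markers, summed to at most 5.1 CPM in any library. Choroid plexus epithelium markers summed to 0.178 to 5.12 CPM in MG and 0.317 to 82.7 CPM in sdCAMs (median 4.92 CPM), highest in M1. The part of RNA of other cell types in the genes described here was not tested.

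**Figure D1:**
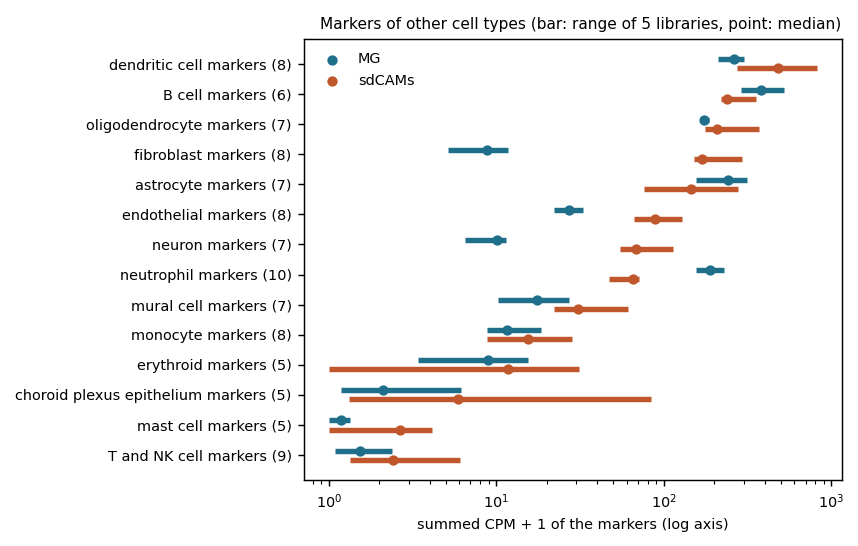
Summed level of markers of other cell types in MG and sdCAM libraries of CTL stroke mice. The x axis is the summed CPM + 1 on a log axis, bars span the lowest to the highest of 5 libraries, points are medians, and the number of markers is in brackets. The summed levels of neuron, fibroblast and endothelial markers were higher in every sdCAM library than in any MG library.

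The cell types differed in 4064 of the 11838 genes tested, 34.3% (edgeR's quasi-likelihood test with the animal as a block, Benjamini-Hochberg adjusted p under 0.05). Of these, 2188 genes were higher in sdCAMs (18.5% of those tested) and 1876 were lower (15.8%), and the median log2FC over all genes tested was −0.05. These shares are the background for each gene list below. The split between higher and lower depended on scaling. With library totals in place of TMM factors, 1852 genes were higher and 2551 lower, and the median of all genes moved to −0.18. A list median smaller than that shift therefore depends on the scaling. The 30 lists below held 1037 different genes, of which 919 had enough counts to be tested. A gene that only one cell type expresses enters the test through that type, so counts and medians over tested members are descriptions. Apart from the lists, the rule for named genes picked Adam33, a membrane metalloprotease, the lectin gene Mgl2, the T-cell coreceptor gene Cd4, Ms4a4a, Rgs18, Serpinb8, Chp2 and Ccn1 as the largest rises. Mgl2 rose from 0.727 ± 0.838 to 477 ± 76.8 CPM (log2FC 9.41, SE 0.46, adjusted p = 4.52e-07). Cd4 was at 0, 0.266, 0, 0 and 0 CPM in MG and at 83, 124, 103, 91.1 and 106 CPM in sdCAMs, a ratio with a 95% counting interval of 672 to 9523, since all MG libraries together held 3 counts. The summed level of T and NK cell markers was at most 5.1 CPM in any sdCAM library. The largest falls by the same rule were those of Lrrc3, Spint1, Nav3, Upk1b, Slco4a1, Mlph, Phgdh, the entry enzyme of serine synthesis, and Rtn4rl1. Spint1, a protease inhibitor, fell from 313 ± 32.6 to 3.57 ± 3.86 CPM (log2FC −6.75, SE 0.50) and Phgdh from 107 ± 9 to 2.29 ± 1.49 CPM (log2FC −5.65, SE 0.45).

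**Figure D2:**
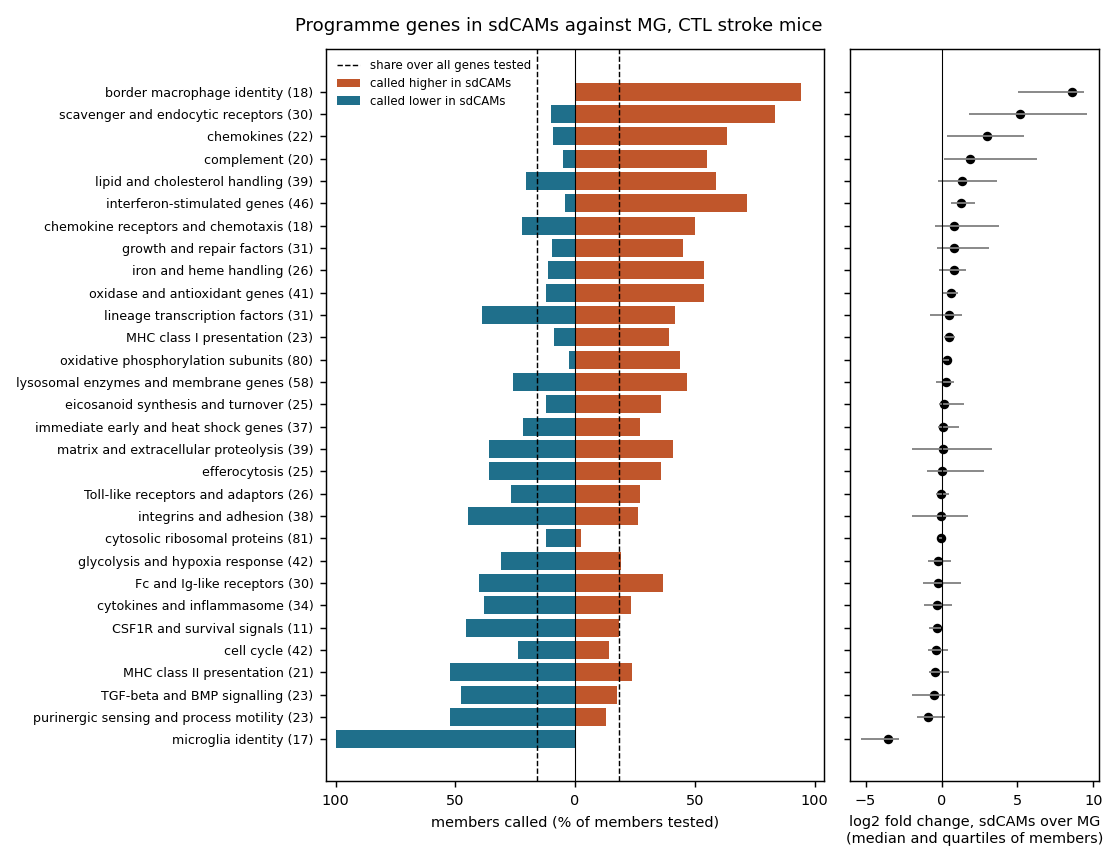
Share of the tested members of 30 gene lists called higher (right) or lower (left) in sdCAMs than in MG, in percent, and the median (point) and quartiles (line) of their log2FC. Dashed lines mark the shares over all genes tested (18.5% higher, 15.8% lower), and the number tested is in brackets. Border macrophage, scavenger, chemokine and interferon genes lean to sdCAMs, microglia identity, purinergic, TGF-β and MHC class II pathway genes to MG.

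All 17 tested microglia genes were lower in sdCAMs than in MG (median log2FC −3.56), and 17 of 18 border macrophage genes were higher (median 8.56, 5.45 among members with at least 10 counts in every library). Both lists were written with such cells in mind, so their direction is no independent finding. Tmem119 was at 3768, 3719.7, 2704, 3229 and 2096 CPM in MG and at 105, 87.2, 19.5, 58 and 23.9 CPM in sdCAMs. Lyve1, a hyaluronan receptor, was at 1.03, 0.178, 0.347, 3.55 and 1.08 CPM in MG and at 2885, 2759, 2449.7, 1813 and 2142 CPM in sdCAMs. Every library of one type thus lay far from every library of the other. The border gene outside the pattern was Ltc4s, the leukotriene C4 synthase, at 158 ± 29 CPM in MG and 189.6 ± 83.7 CPM in sdCAMs (log2FC 0.19, SE 0.19, adjusted p = 0.483). Its sdCAM values were 138, 137, 337, 169 and 166 CPM, with F3 alone above the MG range. Apolipoprotein E, the main lipid carrier of the brain, rose from 598 ± 431 to 37448 ± 4517 CPM, 73.1-fold by the fit.

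Lineage transcription factors split about evenly, 13 higher and 12 lower of 31. Spi1, which encodes PU.1, the factor that every macrophage needs, was at 469, 460.4, 535, 531 and 517 CPM in MG and at 416, 439, 453, 460.1 and 535 CPM in sdCAMs (log2FC −0.13, SE 0.09, adjusted p = 0.308), and the ranges overlapped. It was called lower with library totals. Sall1 was at 218, 231, 244, 281.98 and 156 CPM in MG and at 15.2, 12.8, 4.99, 4.84 and 0.167 CPM in sdCAMs, and its relative Sall3 fell likewise (log2FC −5.29, SE 0.35). Sall1 in sdCAMs was thus at 3.37% of the MG level, within the range of the other MG markers there. Maf, a factor of macrophage differentiation, rose from 277 ± 49.5 to 1002 ± 313 CPM (log2FC 1.83, SE 0.14) in 5 of 5 animals and without overlap. Among interferon regulatory factors, Irf8, needed for microglia to form, fell (log2FC −0.85, SE 0.10), whereas Irf4 rose from 2.76 ± 2.15 to 24.5 ± 8.27 CPM (log2FC 3.31, SE 0.47). Klf4, a factor of monocyte differentiation, rose (log2FC 2.51, SE 0.27), as did Tfec, a relative of the lysosomal regulators Mitf and Tfeb, from 1.39 ± 1.34 to 46.8 ± 14 CPM. Mef2c, another factor of MG, was at 487 ± 79.2 CPM in MG and 378 ± 76.2 CPM in sdCAMs (adjusted p = 0.0175). That call was lost without the animal block and without any one of F1, F2 or M1 (adjusted p up to 0.0853).

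The 250 bases before the start of the identity genes were searched for GGAAGT on either strand, letters bound by PU.1 and other ETS factors, the factor family of Spi1. RefSeq gave a start (first listed, GRCm38.p6) for 11 of 17 microglia and 15 of 17 border genes called. The letters were found before 3 of 11 (27.3%) and 7 of 15 (46.7%), against 20% of 27025 genes. Windows of 30 bases around the match, 5′ to 3′ on the strand of the gene with the match in capitals, are shown for 3 genes of each kind because they are the same letters before genes that differ many-fold in opposite directions. P2ry12 (chr3:59263019-59263048, minus strand), Siglech (chr7:55768016-55768045, plus strand) and Golm1 (chr13:59675794-59675823, minus strand) were higher in MG. Pf4 (chr5:90772405-90772434, plus strand), Folr2 (chr7:101857309-101857338, minus strand) and Lyz2 (chr10:117282355-117282384, minus strand) were higher in sdCAMs.
P2ry12: agctaacaagaaGGAAGTtccccagtgaca
Siglech: tgtgcaacaagcACTTCCcagtctgagcca
Golm1: tgcggctccgccGGAAGTgcccgcccgccc
Pf4: tgtcattgcttctgcagagcACTTCCtcat
Folr2: gctaaatcaccaGGAAGTgaaactcttcaa
Lyz2: agatcggtaggaACTTCCtgttttgcacac
A match describes the letters only and shows no binding.

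TGF-β and BMP genes leaned to MG, 11 of 23 lower and 4 higher in sdCAMs (median −0.48). The median turned to 0.13 with DESeq2 and the filter of the study and to 0.015 without the filter on low counts. The ligand Tgfb1 (137 ± 10.1 and 118 ± 26.1 CPM, adjusted p = 0.152) and the receptor Tgfbr2 (log2FC −0.05, SE 0.11, adjusted p = 0.772) were not called, although Tgfb1 was called lower with library totals and without F3. The partner receptor Tgfbr1 was at 1033, 1241, 1003, 989 and 664 CPM in MG and at 128, 185, 55.7, 84.2 and 80.5 CPM in sdCAMs, 9.83-fold lower. Smad3, which carries the signal, fell (log2FC −1.47, SE 0.21), and so did the feedback inhibitors that the pathway itself induces, Smad7 from 74.1 ± 4.62 to 3.43 ± 1.7 CPM and Skil from 158 ± 24 to 33.7 ± 13.5 CPM. Itgav, the integrin chain that frees TGF-β from its latent form, fell by 1.77 on the log2 scale. The members that rose were Nrros, which anchors latent TGF-β on macrophages (2.03-fold, SE of the log2 value 0.12), Tgfbi, a secreted matrix protein (log2FC 3.30), Smad4 and Bmp2. Bmp2 was at 0, 0, 0, 0.346 and 0.232 CPM in MG and at 95.7, 71.4, 173, 208 and 82.4 CPM in sdCAMs, so that the ligand was nearly absent from MG and present in every sdCAM library. Of CSF-1 receptor and survival genes, Csf1r itself was at 4403 ± 585 CPM in MG and 3574 ± 409.7 CPM in sdCAMs (log2FC −0.30, SE 0.09, adjusted p = 0.028). Its call was lost without the animal block, among genes with at least 10 counts in every library, and without any one of F1, F2, F3 or M1 (adjusted p up to 0.0889). The ligand Csf1 was at 64.5, 34.8, 61.3, 35.7 and 238 CPM in MG and at 8.23, 12.3, 16.3, 5.8 and 3.25 CPM in sdCAMs (log2FC −2.87, SE 0.57, adjusted p = 0.00382), and M2 was highest in MG and lowest in sdCAMs. Csf2ra, a GM-CSF receptor chain, rose (log2FC 0.68, SE 0.13), and Csf3r, the G-CSF receptor, fell (−1.61, SE 0.11).

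**Figure D3:**
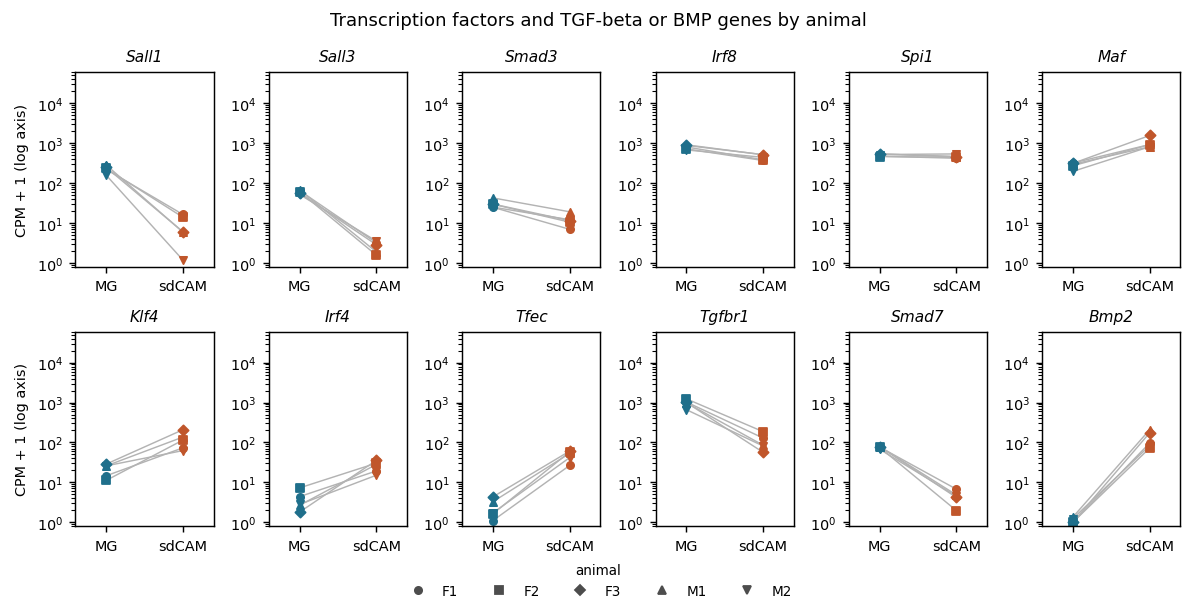
Levels of transcription factors and TGF-β or BMP genes in MG and sdCAMs of the same animals. Each panel is a gene, the y axis is CPM + 1 on a log axis, each symbol is an animal and lines join its 2 libraries; Spi1 overlaps between the cell types, Sall1, Sall3, Smad3, Irf8, Tgfbr1 and Smad7 fall and Maf, Klf4, Irf4, Tfec and Bmp2 rise in every animal.

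Scavenger and endocytic receptors had the highest median after the border genes, 25 of 30 higher and 3 lower (median 5.17, but 2.08 among members with at least 10 counts in every library). Cd163, the hemoglobin-haptoglobin receptor, was at 0, 1.33, 0, 3.55 and 3.49 CPM in MG and at 1785, 2277, 1538, 1737 and 1382 CPM in sdCAMs. Colec12, a collectin scavenger receptor, rose from 0.202 ± 0.29 to 365 ± 43.2 CPM, and Cd36, which takes up oxidized lipoprotein, from 23.2 ± 16.4 to 710.0 ± 91.8 CPM. Dab2, an adaptor of clathrin-mediated uptake, rose from 198 ± 109.6 to 2421 ± 227 CPM (log2FC 3.77, SE 0.27). The lectin genes Cd209a, Cd209b, Cd209d, Cd209f and Cd209g all rose. Cd209b reached 339 ± 100.3 CPM against 0.0893 ± 0.0901 CPM, but these genes are close copies and how reads were shared among them is uncertain. The members that fell were Lrp1, a large receptor for many ligands (log2FC −1.18, SE 0.11), Scarb2 (−0.70, SE 0.15) and Cd5l.

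Genes for the uptake of dying cells (efferocytosis) were divided instead, 9 higher and 9 lower of 25 (median 0.06, −0.08 with library totals and 0.31 without M2). The kinases that bind phosphatidylserine through the bridging proteins Gas6 and Pros1 went opposite ways. Axl was at 7.28, 9.94, 40.6, 13.6 and 9.22 CPM in MG and at 247, 188, 149, 205 and 110.0 CPM in sdCAMs, and Mertk at 380.0, 444, 362, 439 and 352 CPM in MG and 198, 196, 249, 194 and 185 CPM in sdCAMs. No sdCAM library overlapped the MG range for either gene. Gas6 rose (log2FC 2.65, SE 0.11) and Pros1 fell (−0.51, SE 0.09). Timd4, a direct phosphatidylserine receptor, rose from 0.48 ± 0.329 to 216 ± 31.5 CPM. The integrin route fell, with Itgb3 from 29.1 ± 6.62 to 0.264 ± 0.194 CPM, Itgb5 from 1451 ± 228 to 336 ± 66.8 CPM, and their bridging protein Mfge8 and the engulfment factor Elmo1 (−1.61, SE 0.11) also lower.

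Genes of nucleotide sensing and process motility leaned to MG, with 12 of 23 members lower and 3 higher in sdCAMs (median −0.92). P2ry12, which steers processes toward ADP, fell from 4699 ± 1039 to 399 ± 40.6 CPM and P2ry13 from 1254 ± 173 to 340.0 ± 58.1 CPM. The adenosine receptor Adora3 was at 75.5, 102, 79.1, 84.5 and 82.9 CPM in MG and at 2.6, 0.475, 0.51, 3.65 and 0.5 CPM in sdCAMs. Entpd1 (CD39), which breaks down ATP, fell by a smaller step (log2FC −0.85, SE 0.10). The ATP-gated channels P2rx4 and P2rx7 went the other way. P2rx7, which opens at high ATP and triggers the inflammasome, was at 114, 127, 115, 124 and 91.7 CPM in MG and at 382, 336, 392, 399 and 392 CPM in sdCAMs, 3.34-fold higher (SE of the log2 value 0.11), and P2rx4 was 3.27-fold higher. P2ry6, a UDP receptor linked to phagocytosis, was not called (421 ± 30.4 and 454 ± 32.7 CPM, adjusted p = 0.449).

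Adhesion genes showed the same kind of exchange, 17 lower and 10 higher of 38, without the gated Itgam and Itgax (median −0.05, but −0.78 among members with at least 10 counts in every library). The integrin chain Itga4, which binds VCAM-1, rose from 0.926 ± 1.14 to 38.5 ± 6.8 CPM and Vcam1 itself from 28.1 ± 24.2 to 1533 ± 423 CPM. Endothelium also makes Vcam1, and the part of its RNA was not tested. Siglec1, a sialic acid receptor, rose from 2.24 ± 1.19 to 185 ± 27.1 CPM. Itga6, a laminin-binding chain, fell from 224 ± 32.9 to 79.1 ± 13.7 CPM, Itgb5 fell as given above, and Adgrg1 (GPR56) fell from 388 ± 63.6 to 8.27 ± 4.66 CPM. The tetraspanin gene Cd9 was at 2542, 2050.2, 2725, 1830.2 and 2857 CPM in MG and at 107, 69.7, 52.2, 70.5 and 90.3 CPM in sdCAMs, and Cd34 and Jam2 fell (log2FC −5.89 and −5.86).

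Toll-like receptors and their adaptors counted 7 higher and 7 lower of 26 (median −0.02, −0.15 with library totals). The bacterial sensors Tlr4, its partner Ly96 (MD-2) and Tlr5, for flagellin, rose, with Tlr5 from 4.53 ± 2.12 to 39.3 ± 8.88 CPM and Ly96 from 71.7 ± 7.71 to 186 ± 36.1 CPM. The RNA sensor Tlr8 was at 1.59, 0, 0, 0.173 and 0.232 CPM in MG and at 76.7, 87.2, 72.5, 68.4 and 48.2 CPM in sdCAMs, and Tlr3, for double-stranded RNA, went from 79.7 ± 17.9 down to 10.6 ± 3.28 CPM. Tlr12, a sensor of parasite profilin, fell from 25.9 ± 9.21 to 0.934 ± 1.2 CPM. The modulators Cd180 and Ly86, which form a complex on B cells and macrophages, fell together (log2FC −1.45 and −1.54, SE 0.15 and 0.13). Tlr2 was not called (adjusted p = 0.114), although it was called lower with library totals. Cd14 was at 1474, 1379.7, 2666, 1651 and 4585 CPM in MG and at 3597, 4044, 6257, 3750.0 and 2705 CPM in sdCAMs, higher in 4 of 5 animals (adjusted p = 0.035). M2 was the exception, and the call was lost in 8 of 13 alternatives, namely without any one of the other 4 animals, with DESeq2 under both filters, with library totals and without the animal block (adjusted p up to 0.118).

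Cytokine genes leaned to MG, 13 lower and 8 higher of 34 (median −0.28, −0.47 without the filter on low counts and −0.14 without F1). The interleukin-1 genes did not move as one. Il1a was at 299, 328, 461, 494 and 348 CPM in MG and at 4.42, 5.94, 2.75, 12 and 2.67 CPM in sdCAMs, 75-fold lower (log2FC −6.23, SE 0.30, adjusted p = 3.64e-07). Il1b was at 36.3, 38.4, 103, 84.7 and 92.2 CPM in MG and at 66.7, 127, 195, 130.1 and 39.5 CPM in sdCAMs, higher in 4 of 5 animals and not called (log2FC 0.61, SE 0.34, adjusted p = 0.198). M2 ran against the other 4 animals, and without M2 the log2FC was 1.03 and was called. Il1rn, the receptor antagonist, fell from 117 ± 135 to 30.6 ± 28.1 CPM in 5 of 5 animals although the groups overlapped. Il6 was at 30.2, 27.1, 28, 30.8 and 25.5 CPM in MG and at 2.6, 4.12, 3.26, 4.68 and 3.5 CPM in sdCAMs, and Tnf at 411, 241, 613, 411 and 511 CPM in MG and 114, 141, 264, 188 and 123 CPM in sdCAMs. Both fell in every animal, Il6 without overlap (log2FC −2.98, SE 0.25) and Tnf with sdCAM F3 above MG F2 (−1.40, SE 0.18). The inflammasome parts Nlrp3 and Pycard fell (log2FC −0.97 and −1.40), whereas Casp1, which they activate, and Nlrc4, a sensor of bacterial flagellin, rose, Nlrc4 from 0.22 ± 0.364 to 25.6 ± 4.97 CPM. Il10, which damps inflammation, was at 0, 0, 0, 0.0865 and 0 CPM in MG and at 10.9, 23.4, 34.3, 25.1 and 10.1 CPM in sdCAMs, a ratio with a counting interval of 212 to 46771, since all MG libraries together held 1 count. Il18bp, which traps interleukin-18, rose from 4.75 ± 1.24 to 43 ± 10.3 CPM, while Il18 itself was not called.

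Chemokine genes leaned to sdCAMs, 14 higher and 2 lower of 22 (median 3.01, but 1.505 among members with at least 10 counts in every library). Genes of this family in gene clusters are similar in sequence, and counts of close copies are uncertain. Monocyte attractants were higher. Ccl2 was at 492, 459, 885, 739 and 871 CPM in MG and at 1759, 1819, 2208, 2899.6 and 1040.0 CPM in sdCAMs (log2FC 1.49, SE 0.24, adjusted p = 0.00104). Ccl7 was at 135, 175, 375, 297 and 219 CPM in MG and at 3839, 3995, 3617, 5751 and 2559.9 CPM in sdCAMs (log2FC 4.09, SE 0.24), and Ccl8 rose from 1.56 ± 1.11 to 1035 ± 520.3 CPM. Groups did not overlap for any of these. Ccl24, an eosinophil attractant, rose from 9.22 ± 4.5 to 488 ± 136 CPM. The neutrophil attractants Cxcl1 and Cxcl2 rose, Cxcl2 from 45.4 ± 32.6 to 728 ± 289 CPM and Cxcl1 from 0.139 ± 0.311 to 50.7 ± 39.4 CPM, with sdCAM libraries from 20.1 to 110 CPM. Pf4 and Ppbp, known best from platelets, reached 4066 ± 1053 and 68.2 ± 49.5 CPM in sdCAMs against 7.59 ± 1.04 and 0.214 ± 0.428 CPM in MG. The chemokines of MG were Ccl4, a macrophage inflammatory protein, at 2956, 1523, 4276, 2117 and 5708 CPM in MG and 483, 411, 464, 567 and 377 CPM in sdCAMs, and Cxcl10, the interferon-induced CXCR3 ligand, at 78.4, 69.3, 372, 166 and 182 CPM in MG and 19, 17.2, 19.7, 25.1 and 22.8 CPM in sdCAMs. The sdCAM values of both spanned a narrow range, and the MG values a wide one. Ccl3, the neighbour of Ccl4, was 1295 ± 589 and 744 ± 190.3 CPM (adjusted p = 0.0769), and it was called lower without the animal block, with library totals and without the filter on low counts. Cxcl12, a product of fibroblasts and endothelium too, rose and was at 0.159 ± 0.269 and 11.4 ± 7.5 CPM, beside the fibroblast and endothelial markers given above.

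Genes of chemokine receptors and chemotaxis were also exchanged, 9 higher and 4 lower of 18. Cx3cr1, the receptor of a neuronal ligand, fell from 2221 ± 281 to 344 ± 153 CPM. Ccr1 rose from 48.1 ± 33.9 to 633 ± 192 CPM, Cxcr3, the CXCL10 receptor, from 1.51 ± 0.451 to 48.4 ± 18.9 CPM, and Fpr1, the receptor of bacterial and mitochondrial formyl peptides, from 0.755 ± 0.796 to 175 ± 54.1 CPM. Ccr2, the gene that drives the reporter, was not called.

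**Figure D4:**
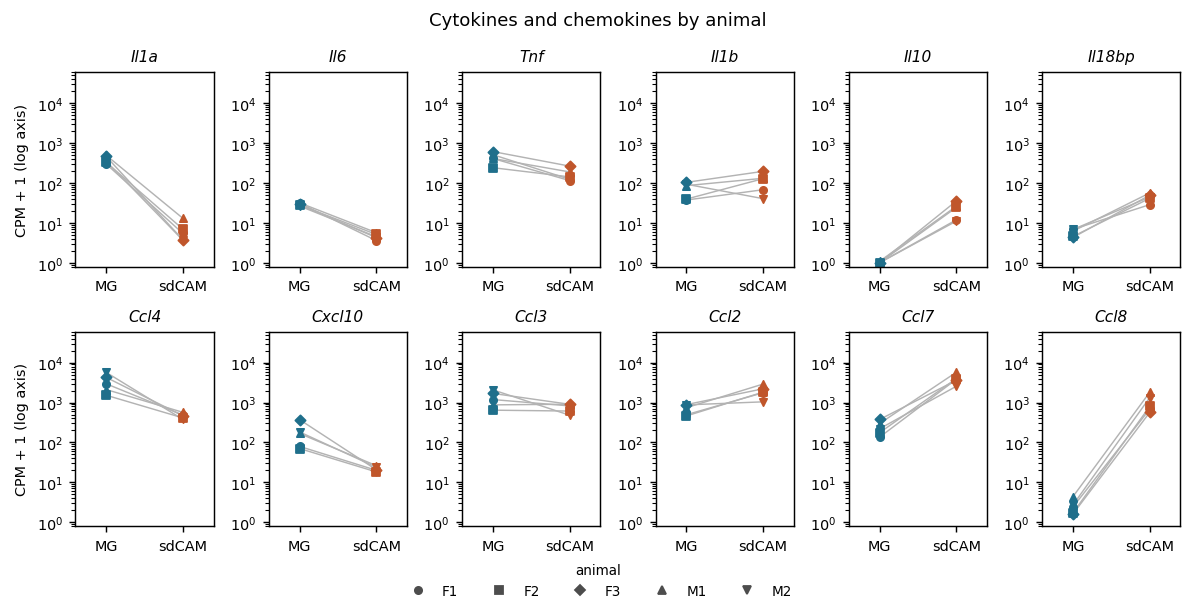
Levels of cytokine and chemokine genes in MG and sdCAMs of the same animals. Each panel is a gene, the y axis is CPM + 1 on a log axis, each symbol is an animal and lines join its 2 libraries; Il1a, Il6, Tnf, Ccl4 and Cxcl10 fall in all 5 animals, Il10, Il18bp, Ccl2, Ccl7 and Ccl8 rise in all 5, and Il1b and Ccl3 go both ways.

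Complement genes were higher in sdCAMs for 11 of 20 members and lower for 1, without the gated Itgam and Itgax (median 1.88, but 0.26 among members with at least 10 counts in every library). The C1q chains, which start the classical pathway, were high in both cell types and were not called. C1qa was at 7269.5, 6686, 7359, 6582 and 5978 CPM in MG and at 7187, 6412, 7652, 6410.0 and 8306 CPM in sdCAMs (log2FC 0.08, SE 0.11, adjusted p = 0.586). Components that act after C1q rose. C4b was at 4.67, 6.3, 2.26, 6.57 and 5.66 CPM in MG and at 468, 666, 244, 564 and 388 CPM in sdCAMs, and C2 rose from 0.285 ± 0.262 to 47.9 ± 13.4 CPM and C3 from 0.792 ± 0.552 to 11.1 ± 7.9 CPM. Properdin (Cfp), which stabilizes the alternative pathway, rose from 1.83 ± 1.02 to 497 ± 52.7 CPM. Cd55, an inhibitor of complement activation, rose from 0.138 ± 0.309 to 96.1 ± 26.9 CPM. Vsig4, a receptor for C3b that marks resident macrophages elsewhere, was at 0, 0, 0, 0.0865 and 0 CPM in MG and at 11.9, 25.8, 11.8, 38.7 and 24.5 CPM in sdCAMs. Itgb2, the shared chain of the complement receptors, fell by a small step (log2FC −0.57, SE 0.10).

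Fc and Ig-like receptors divided, 11 higher and 12 lower of 30. The neonatal Fc receptor Fcgrt, which recycles IgG, rose from 158 ± 20.5 to 1802 ± 369 CPM, and the inhibitory receptor Fcgr2b from 552 ± 88 to 1870.4 ± 431 CPM, whereas the activating receptors Fcgr1 and Fcgr3 were not called. Receptors with inhibitory motifs were found on both sides. Pirb rose (log2FC 2.94, SE 0.18) and Cd200r1, the receptor for neuronal CD200, rose (2.35, SE 0.17), while Lair1 fell (−2.18, SE 0.10), Sirpa, the receptor for CD47, fell (−0.93, SE 0.11) and Siglecf fell from 35.4 ± 12.6 to 0.667 ± 1.33 CPM.

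Within the class II antigen pathway the surface molecules rose and most of the machinery that loads them fell. Of 21 members, 5 were higher in sdCAMs, namely H2-Aa, H2-Ab1, H2-Eb1, the invariant chain Cd74 and the costimulatory Cd40, and 11 were lower. H2-Aa was at 15.1, 41.5, 17.5, 17.7 and 18.7 CPM in MG and at 473, 916, 419, 922 and 441 CPM in sdCAMs. F2 was the highest MG library, and F2 and M1 were the highest sdCAM libraries. Cd74 rose from 167 ± 31.5 to 2619 ± 698 CPM (log2FC 3.95, SE 0.17). The peptide exchange chains H2-DMa and H2-DMb1 fell (log2FC −0.85 and −0.40), as did H2-Oa and H2-Ob, which restrain them. H2-Oa was at 21.7, 19.4, 26.7, 21.7 and 11.2 CPM in MG and at 0.78, 0, 0.612, 0 and 0.833 CPM in sdCAMs. Cathepsin S (Ctss), which trims the invariant chain, fell from 11015 ± 1096 to 4846 ± 356 CPM and legumain (Lgmn) by a log2FC of −0.54 (SE 0.10). Ciita, the master activator of class II genes, was too low to be tested, at 0, 0, 0, 0 and 0.232 CPM in MG and 0.606, 6.65, 0.917, 9.13 and 0.75 CPM in sdCAMs. Dendritic cell markers summed to 208 to 298 CPM in MG and 271.12 to 821 CPM in sdCAMs. Most of the sdCAM sum was Cd209a, which rose with Zbtb46, a transcription factor of dendritic cells (3.46 ± 1.51 to 21.6 ± 6.01 CPM, log2FC 2.68, SE 0.40), while Fscn1 and Itgax, which encodes the CD11c of the gate, were lower. Xcr1 was at 0 in all sdCAM libraries, and Clec9a was at a mean of 0.0851 CPM. H2 genes are similar to one another, so the share of reads among them is uncertain.

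Of class I genes, 9 of 23 were higher and 2 lower (median 0.48; 4 lower with library totals, 0 without F2, without M1, without the animal block and in the model of 20 libraries), with H2-D1 at 837 ± 52.3 and 2295 ± 291 CPM, H2-K1 at 471 ± 103 and 1033 ± 113 CPM, and their activator Nlrc5 at 2.79 ± 2.04 and 14 ± 3.19 CPM. Of interferon-stimulated genes, 33 of 46 were higher and 2 lower (median 1.30). Ifitm3, which blocks viral entry, was at 38.4, 88.8, 105, 83.6 and 48.9 CPM in MG and at 948, 709, 1203, 881 and 1137 CPM in sdCAMs. Irf7 rose from 33.7 ± 7.5 to 146 ± 65.7 CPM and Oas2, a sensor of viral RNA, from 1.34 ± 0.952 to 51 ± 25.2 CPM. Members of the Ifit, Oas and Ifi20x families are close copies and uncertain one by one. The size of the difference varied among animals. The median difference, as log2(CPM + 1), of the list was 1.89 in F1, 1.07 in F2, 0.38 in F3, 1.76 in M1 and 1.30 in M2. The members that fell were Ifngr1 (log2FC −0.52, SE 0.10) and Ifngr2 (−0.69, SE 0.10), which encode the receptor of interferon-γ. The interferon-induced Cxcl10, given above with the chemokines, fell too. Isg15 was called at an adjusted p of 0.0452, and it was not with library totals, in the model of 20 libraries or without any one of F1, F2, M1 or M2 (up to 0.141).

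Genes that handle heme and iron leaned to sdCAMs, 14 of 26 higher and 3 lower (median 0.79, 1.27 without the filter on low counts). The steps from uptake to export were represented. Beside Cd163, heme oxygenase 1 (Hmox1), which opens the heme ring, was at 102, 108, 69.1, 178 and 111 CPM in MG and at 1031, 1001, 577, 1559 and 1472 CPM in sdCAMs (log2FC 3.29, SE 0.12, adjusted p = 9.73e-08). Blvrb, which reduces biliverdin, rose from 68.6 ± 25.1 to 460.4 ± 88.1 CPM. Ferroportin (Slc40a1), the iron exporter, was at 291, 323, 255, 214 and 168 CPM in MG and at 544, 542, 558, 837 and 557 CPM in sdCAMs, and ceruloplasmin (Cp), which oxidizes the iron released, rose from 5.81 ± 5.12 to 432 ± 66.7 CPM. The ferritin genes Fth1 and Ftl1 rose 2.45-fold and 2.36-fold. Slc46a1, a transporter of folate and heme, fell from 152 ± 15.1 to 44.1 ± 12.1 CPM, and Slc11a1, the phagosomal metal pump, was not called (314 ± 51.3 and 305 ± 31.2 CPM).

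**Figure D5:**
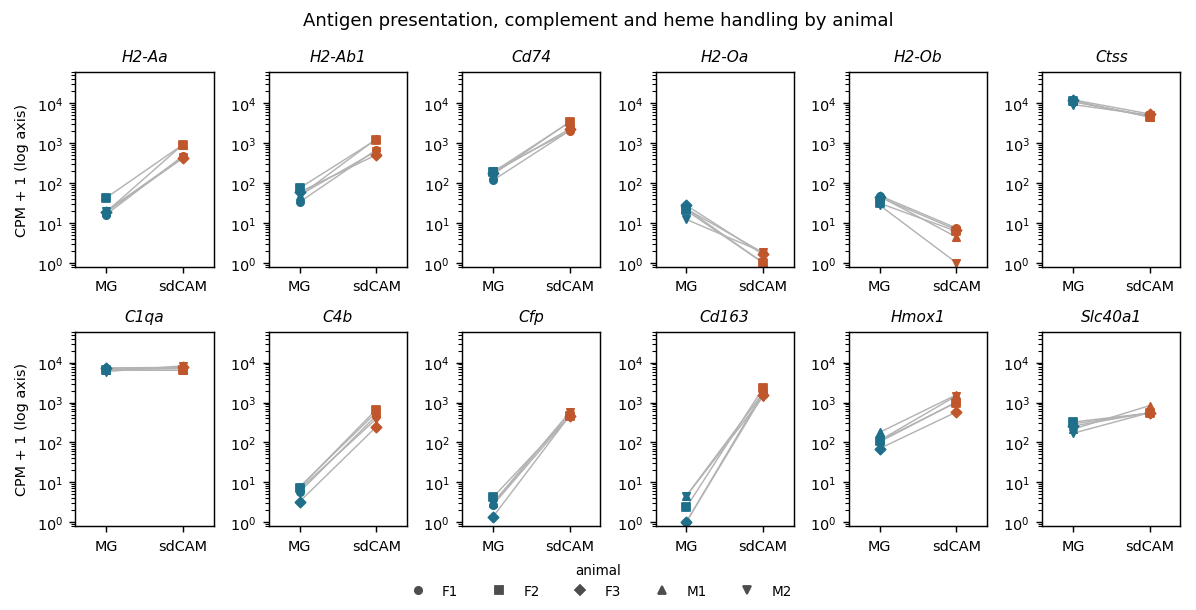
Levels of antigen presentation, complement and heme or iron genes in MG and sdCAMs of the same animals. Each panel is a gene, the y axis is CPM + 1 on a log axis, each symbol is an animal and lines join its 2 libraries; H2-Aa, H2-Ab1, Cd74, C4b, Cfp, Cd163, Hmox1 and Slc40a1 rise, H2-Oa, H2-Ob and Ctss fall in all 5 animals, and C1qa overlaps between the cell types.

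Lipid genes rose for 23 of 39 members and fell for 8 (median 1.38, 0.79 among members with at least 10 counts in every library). The carriers and transfer proteins Apoe, Apoc1 and Pltp rose, Pltp from 4.63 ± 1.25 to 443 ± 82 CPM. Sqle, an enzyme of cholesterol synthesis, and the regulator Srebf2 rose (log2FC 3.30 and 2.01). Lipoprotein lipase (Lpl), at 726, 305, 609.9, 318 and 1726 CPM in MG and 87.2, 19.2, 51.6, 39.7 and 49.1 CPM in sdCAMs, was higher in MG, as was Lpcat2, which makes platelet-activating factor, at 1332 ± 232 and 182 ± 42.8 CPM, while Pla2g7, which degrades that factor, rose from 7.74 ± 1.41 to 1237 ± 226 CPM. The cholesterol exporters were divided, Abcg1 lower (96.1 ± 10.4 and 18.4 ± 2.47 CPM) and Abca1 not called (168 ± 15.6 and 139 ± 40.9 CPM). Of eicosanoid genes, 9 of 25 were higher and 3 lower. The constitutive cyclooxygenase Ptgs1 fell from 883 ± 119 to 306 ± 26.9 CPM, the inducible Ptgs2 was not called (44.8 ± 44.6 and 25.7 ± 10.2 CPM), and the phospholipase Pla2g2d rose from 0.188 ± 0.38 to 186 ± 64.8 CPM. Ptgds, the prostaglandin D2 synthase of leptomeningeal fibroblasts, was at 7.38, 3.73, 7.21, 3.11 and 9.84 CPM in MG and 130.1, 134, 260.4, 121 and 197 CPM in sdCAMs, and it moved with the other fibroblast markers, whose part was not tested.

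The oxidase that makes superoxide showed a mixed makeup. Its membrane catalytic subunit Cybb was at 29.3, 30.3, 92.5, 33.4 and 43.6 CPM in MG and at 591, 523, 673, 589 and 336 CPM in sdCAMs, its partner Cyba was not called (1108 ± 56.2 and 1250.1 ± 151 CPM), and the cytosolic subunits Ncf1 and Ncf4 and the proton channel Hvcn1 fell (log2FC −0.95, −0.85 and −1.76). Over the list of oxidase and antioxidant genes, 22 of 41 rose and 5 fell (median 0.65). Gpx3, a secreted glutathione peroxidase, rose from 0.566 ± 0.583 to 1273 ± 93.4 CPM, Mgst1 from 1.38 ± 0.154 to 190.1 ± 57.1 CPM and the metallothionein Mt1 from 207 ± 76.2 to 1164 ± 551 CPM, while Gclc, the first step of glutathione synthesis, fell (log2FC −0.97, SE 0.15), a call lost in the model of 20 libraries (adjusted p = 0.118).

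Growth and repair factors were higher in sdCAMs for 14 of 31 members and lower for 3 (median 0.80). Igf1 was at 1.12, 0.622, 3.21, 0.692 and 7.51 CPM in MG and at 265, 287, 377, 314 and 339 CPM in sdCAMs, and its binding protein Igfbp4 rose from 15.8 ± 6.19 to 681 ± 23.6 CPM. The platelet-derived growth factors were exchanged. Pdgfb fell from 92.6 ± 26.2 to 19.3 ± 6.49 CPM and Pdgfc rose from 0.474 ± 0.515 to 42 ± 13.9 CPM. Nrp1, a receptor for VEGF and semaphorins, rose from 59.5 ± 13.2 to 567 ± 98.7 CPM, and Sema4d fell from 171 ± 27.6 to 69.3 ± 15.1 CPM. Vegfa was at 6.18 ± 3.83 and 2.57 ± 3.29 CPM and not called (log2FC −2.60, SE 1.10, adjusted p = 0.0985), but it was called lower with DESeq2 under both filters, without the filter on low counts and without F2. Bdnf was below the filter. Fibroblasts also make Igf1, Igfbp4 and Pdgfc, and their markers were higher in sdCAM libraries as given above, and Nrp1 is also known from endothelium. Their part was not tested.

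Matrix and proteolysis genes exchanged members, 16 higher and 14 lower of 39 (median 0.06, 0.73 with DESeq2 and the filter of the study). Of the metalloproteases, Mmp9 was at 0.0934, 0, 0, 1.47 and 0 CPM in MG and at 127, 91.3, 80.4, 167 and 137 CPM in sdCAMs, and Mmp12 at 158, 106, 209, 184 and 944 CPM in MG and 16.9, 0, 0, 2.46 and 8.5 CPM in sdCAMs. They thus marked opposite cell types, with a wide spread of Mmp12 among MG libraries. The coagulation genes F13a1 and Thbd (thrombomodulin) and the activator Plau rose, Thbd from 0.534 ± 0.682 to 76.1 ± 13.7 CPM and Plau from 6.88 ± 2.35 to 21.4 ± 6.57 CPM. Thbd is also known from endothelium, whose part was not tested. The thrombin and plasmin inhibitor Serpine2 fell from 906 ± 183 to 23.2 ± 19.1 CPM, the protease Klk8 from 82.4 ± 24.8 to 0.862 ± 0.674 CPM and Sparc from 3726 ± 589.6 to 77.7 ± 30.7 CPM. Fn1 was not called (11.5 ± 7.31 and 7.03 ± 7.48 CPM), although it was called lower without F3.

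Lysosomal genes rose for 27 and fell for 15 of 58 members (median 0.32, 0.18 with library totals). The cathepsins divided. Ctsb rose from 9767 ± 2638 to 16755 ± 1410.2 CPM and Ctsc from 2057 ± 161 to 6693 ± 747 CPM, whereas Ctsd fell from 10003 ± 1656 to 4364 ± 523 CPM and Ctss as given above. Cystatin C (Cst3), an inhibitor of cysteine cathepsins, fell from 28450.4 ± 3459 to 5837 ± 1312 CPM and Cst7 from 66 ± 8.87 to 3.75 ± 1.47 CPM.

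Of oxidative phosphorylation subunits, 35 of 80 were higher and 2 lower (median 0.36, 0.23 with library totals), and 19 were higher with library totals, 22 without F3 and 20 without M2. Among the subunits was Sdha at 198 ± 24.4 and 361 ± 25.6 CPM. The per-animal medians were 0.64 and 0.59 in F3 and M2 and between 0.11 and 0.23 in the others. Glycolysis and hypoxia genes leaned to MG, 13 lower and 8 higher (5 higher in the model of 20 libraries) of 42. The sugar carrier Slc2a1 (GLUT1) fell from 80.8 ± 14.6 to 38.2 ± 9.94 CPM, the lactate exporter Slc16a3 from 95.5 ± 20.1 to 8.36 ± 5.16 CPM and Ldhb from 444 ± 84.6 to 20.6 ± 7.17 CPM, while the lactate dehydrogenase Ldha and the hexokinase Hk2 also fell (log2FC −0.58 and −0.63, the call of Hk2 being lost without the animal block). The glycolytic enzymes Gpi1 and Pfkp rose (log2FC 0.90, SE 0.10, and log2FC 3.49, SE 0.38), and Pgk1, Eno1, Pkm and Aldoa were not called. Of ribosomal protein genes, 69 of 81 were not called (median −0.05, −0.19 to 0.015 over the alternatives). The number lower went from 10 to 21 with library totals and to 4 without the animal block or without any one of F1, F2 or M1.

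Of cell cycle genes, 6 were higher and 10 lower (5 lower in the model of 20 libraries) of 42 (median −0.38, −0.27 to −0.66 over the alternatives). Cenpa, a centromere histone, rose from 4.51 ± 1.1 to 32.1 ± 8.18 CPM (log2FC 2.82, SE 0.26) in 5 of 5 animals without overlap. Mki67, a gene of dividing cells, was at 0.587 ± 0.538 and 0.555 ± 0.531 CPM, below the filter, and Top2a and Cdk1 were not called. Myc fell from 194 ± 54.4 to 66.4 ± 8.89 CPM and the replication genes Pcna and Mcm7 fell (log2FC −0.80 and −1.03), the call of Mcm7 being lost in the model of 20 libraries (adjusted p = 0.138), while Ccnd2 rose from 2.95 ± 0.752 to 35 ± 17.5 CPM. Immediate early genes, which also respond to handling of live cells, did not go one way. Fos was at 1723, 1803, 3411, 3376 and 2168 CPM in MG and at 7945, 9347, 11580.2, 10239.6 and 3752 CPM in sdCAMs (log2FC 1.75, SE 0.21), Jun was not called (3305 ± 440.3 and 3300.1 ± 981 CPM), and Ier5 fell (log2FC −1.57, SE 0.09). Over the list, 10 of 37 rose and 8 fell, and Hspa1a was not called. Whether handling of live cells also shaped the cytokine and chemokine levels given above was not tested.

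The same contrast was then set beside the 5 animals or pools of mice that had received BLZ945, a CSF-1 receptor inhibitor, at 200 mg/kg on 7 days, 8 weeks before the stroke. All but F2 of those libraries pooled 2 animals, and the labels list 1 animal both as F2 and in the pool M1, so that these may not be separate replicates. In a model of 20 libraries, the difference between sdCAMs and MG changed with treatment for 1 of 12697 genes (edgeR, 1295 genes at an unadjusted p under 0.05), and without the animal block for 5. The gene was H2-Aa, whose difference was larger in BLZ945 mice by 2.29 on the log2 scale (SE 0.28, adjusted p = 0.0265). In that model's scaling, its median was 17.5 CPM in MG and 464 CPM in sdCAMs of CTL mice, and 7.8 CPM in MG and 897 CPM in sdCAMs of BLZ945 mice. The call was lost without F2 or without M2, each left out of both treatments.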

How the data were processed

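Microglia and tdT− sdCAMs were sorted from the same vehicle-treated stroke mice, and libraries were made with the SMART-Seq mRNA LP kit from about 500 pg of RNA with 13 cycles of cDNA amplification and without molecular identifiers. The authors deposited raw read counts per gene, not normalized, for all libraries. The submitters' processing notes name bcl2fastq 2.20, STAR 2.7.11a and featureCounts 2.0.6. Genes of close copies share reads in such counts.

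The table held 33280 genes. The test was that of edgeR 4.0.16 under R 4.3.3 (filterByExpr, TMM factors, quasi-likelihood F test, Benjamini-Hochberg adjustment, threshold 0.05) with cell type and animal as terms. The animal is a block because the labels give the same animal for both libraries, whose deviations from the group means correlated at 0.0783 to 0.198. SE was the absolute log2 fold change divided by the square root of F. Each library held cells of 1 animal. A count of 3 corresponds to 0.232 to 0.306 CPM per library, and this floor and the counting intervals (95%, exact Clopper-Pearson, conditional on the total) cover counting error only. The median fitted value of a list did not change when genes at 0 counts in a group were set to their bound.

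Members and lists were chosen with earlier results of these data known. For each list the text names key genes and up to 4 called members per direction, taken by size of change, that had an average log2 CPM of at least 3 and no overlap between groups, and outside the lists 8 in each direction at an average of at least 5. Members named beyond that rule, such as Cxcl12, Fth1, Ftl1, H2-DMa, H2-DMb1, Sqle, Srebf2 and Zbtb46, were chosen after their values were seen. Alternatives were the fit without the block, DESeq2 1.42.0, other scaling and filters, a model of 20 libraries and leaving out each animal. The code was tested on simulated data. Promoter sequence was taken from RefSeq (GRCm38.p6). Fcrls and H2-L were not used here, and some members of the lists are not reported here.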

Additional observations from a re-analysis of the deposited data

Results flagged for a closer look

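In the 5 libraries of each cell type, the highest or lowest library stood apart by Dixon's criterion in 39 of 506 tests of named genes, and chance alone gives such a result in about 1 of 20 tests. Values are CPM of the library that stood apart. MG M2 was the lowest for Arsb at 78.2 CPM, Csf1r at 3399.6 CPM, Ptgs1 at 678 CPM, Sgsh at 3.49 CPM, Siglech at 1206 CPM, Sparc at 2689.8 CPM, Tlr12 at 10.6 CPM and Tlr3 at 49 CPM. MG M2 was the highest for Blvrb at 113 CPM, Msr1 at 536 CPM and Prdx1 at 1254 CPM. sdCAM F3 was the highest for B2m at 10212 CPM, Cst3 at 8144 CPM, Ltc4s at 337 CPM, Ly86 at 1429.9 CPM, Ly96 at 248 CPM, Maf at 1553 CPM, Mertk at 249 CPM and Sgsh at 93.7 CPM. sdCAM F3 was the lowest for Nrros at 609 CPM, Pilra at 1.94 CPM and Pros1 at 316 CPM. sdCAM M2 was the lowest for Arsb at 11 CPM, Ecscr at 0 CPM, Egr1 at 867 CPM, H2-Ob at 0 CPM, Klf6 at 674 CPM, Pfkp at 13.2 CPM and Top2a at 0.25 CPM. sdCAM M2 was the highest for Ldha at 384 CPM. MG F2 was the lowest for Aldoc at 4.00 CPM. MG F2 was the highest for H2-Aa at 41.5 CPM and Ly96 at 85.2 CPM. sdCAM F1 was the lowest for Abca1 at 72.1 CPM. sdCAM F1 was the highest for Nlrc4 at 34.3 CPM. MG F1 was the lowest for Itga6 at 166 CPM. MG M1 was the highest for Itgb2 at 585 CPM. sdCAM F2 was the lowest for P2rx7 at 336 CPM. sdCAM M1 was the highest for Slc40a1 at 837 CPM.

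For H2-Aa, the difference between sdCAMs and MG was larger in BLZ945 than in CTL mice by 2.29 on the log2 scale, by the test of the interaction across 12697 genes (edgeR, adjusted p = 0.0265), and MG F2 of the CTL mice was the highest MG library. The call was lost without F2 or M2.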

How the results depend on the processing

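The counts of genes called stayed within 1.5 times of 4064 under all 13 alternatives, between 3150 in the model of 20 libraries and 5098 with DESeq2 and the filter of the study, and every call shared with the main one had the same direction. Without the replicate block for the animal, 3966 genes were called, of which 3722 were shared, and the count of genes whose difference changed with BLZ945 was 5 instead of 1. That count was 0 to 1 without 1 animal of each treatment. Of 254 named genes called, 236 kept their call in all alternatives and 18 lost it in at least 1, and no direction was reversed. Medians of some lists moved, in part because other filters tested other members. With DESeq2, the animal block and the filter of the study, the median was 0.13 for TGF-β and BMP, 2.67 for complement, 1.25 for iron and heme handling, 1.00 for lipid and cholesterol handling and 0.73 for matrix and extracellular proteolysis. Among genes with at least 10 counts in every library, the median was 5.45 for border macrophage identity, 0.28 for lineage transcription factors, 2.08 for scavenger and endocytic receptors, 1.505 for chemokines, 0.26 for complement, −0.25 for MHC class II presentation, 0.60 for iron and heme handling, 0.79 for lipid and cholesterol handling and −0.78 for integrins and adhesion. With library totals, the median was −3.69 for microglia identity, −0.43 for CSF1R and survival signals, −0.15 for Toll-like receptors and adaptors, 0.35 for MHC class I presentation, 0.66 for iron and heme handling, 0.51 for oxidase and antioxidant genes and 0.18 for lysosomal enzymes and membrane genes. In the model of 20 libraries with the animal block, the median was 2.52 for complement and 0.62 for matrix and extracellular proteolysis. Without the filter on low counts, the median was 0.015 for TGF-β and BMP, 4.55 for scavenger and endocytic receptors, −0.47 for cytokines and inflammasome, 3.34 for chemokines, 2.62 for complement, 1.27 for iron and heme handling, 0.98 for lipid and cholesterol handling and 0.63 for matrix and extracellular proteolysis. Over fits without 1 animal, the median ran from 0.012 (without F3) to 0.31 (without M2) for efferocytosis, 2.58 (without M1) to 3.15 (without F2) for chemokines, 1.26 (without M1) to 2.17 (without F2) for complement, 0.34 (without F2) to 0.53 (without M2) for MHC class I presentation, 0.51 (without M1) to 0.73 (without F3) for oxidase and antioxidant genes, 0.038 (without F2) to 0.37 (without F3) for matrix and extracellular proteolysis, −0.40 (without F2) to 0.028 (without M2) for integrins and adhesion and −0.66 (without F3) to −0.40 (without F1) for cell cycle. The cause of the other shifts was not tested. The TGF-β and BMP median, the efferocytosis median and the integrin median thus lie near 0 or on either side of it. Genes below the filter were not tested in the main fit, where the floor was 0.232 to 0.306 CPM per library, and without the filter 21413 genes were tested and 4330 called, of which 3806 were shared. With at least 10 counts required in every library, fewer members of the lists were tested, and those called higher were 9 of 10 for border macrophage identity, 11 of 15 for scavenger receptors, 8 of 15 for chemokines, 5 of 11 for complement, 5 of 19 for efferocytosis, 6 of 25 for adhesion and 9 of 23 for matrix genes. With library totals, the members called lower went from 3 to 5 for iron genes, from 3 to 5 for growth factors (5 also without F2) and from 2 to 5 for oxidative phosphorylation subunits (1 without any one of F2, F3 or M1).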
